A study of Homo sapiens with 6 samples.

Results

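HSP90AA1 and HSP90AB1, the inducible and the constitutive cytosolic HSP90 chaperones, were examined together with 7 cochaperone genes (AHSA1, STIP1, CDC37, PTGES3, CHORDC1, FKBP4 and FKBP5) and HSF1, the transcription factor that HSP90 holds in check. The 10 genes were chosen by name from 29982 gene symbols, with earlier results of these data known. All 10 were among the 13287 genes with a mean level of at least 1 FPKM (sequenced fragments scaled by transcript length and by mapped reads). RNA came from OVCAR5, an established human ovarian cancer cell line. There were 2 libraries of cells given DMSO, the vehicle, for which the labels give no duration. The other libraries came from cells given 10 μM SpiD7, a spirocyclic dimer that the study tested as an activator of the unfolded protein response, with 2 libraries at 2 h and 1 library each at 6 h and 12 h. All cells were grown in DMEM high glucose medium with FBS and penicillin-streptomycin. Nothing in the labels says that libraries of a group came from separate cultures, so that p-values measure only the spread between these libraries, which may be technical.

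HSP90 is a dimeric ATP-dependent chaperone that completes the folding of kinases, steroid receptors and other client proteins. STIP1, also called HOP, passes clients from HSP70 to HSP90. CDC37 brings in kinases, AHSA1 stimulates the HSP90 ATPase, and PTGES3, also called p23, binds the ATP-bound closed dimer late in the cycle. FKBP4 and FKBP5 are large immunophilins that join HSP90 complexes of steroid receptors. CHORDC1 is an HSP90-binding protein with zinc-binding CHORD domains. When unfolded proteins occupy the chaperones, HSF1 is released, forms trimers and binds heat shock elements, arrays of inverted GAA units upstream of chaperone genes.

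The promoters of 3 of the 8 members searched carried the letters of a heat shock element with 3 units. RefSeq promoter windows (GRCh38.p14, 250 bases before to 50 after each start) were found for 8 members by symbol, in 14 windows, and none was used here for FKBP4 and HSF1. They were searched for GAANNTTCNNGAA and, as the same element on the other strand, TTCNNGAANNTTC. These letters stood in windows of HSP90AA1, HSP90AB1 and CHORDC1, 3 of 8 symbols, against 0.608% of all 27305 symbols. By window they stood in 3 of 14, against 0.49% of all 35116 windows. The element with 2 units, GAANNTTC or TTCNNGAA, each of which reads the same on both strands and lies inside the longer element, was found for 1 more member, STIP1, making 4 of 8 symbols, against 16.2% of all symbols, and in 13.5% of all windows. A match is a match of letters only, and its absence from a window says nothing about binding. The stretches around the matches with 3 units are shown because these 3 genes include the member with the largest change. Capitals mark the letters of matches with 3 or 2 units. All 30 bases of the HSP90AA1 stretch, and all 30 of the CHORDC1 stretch, lay in annotated exons. All 3 stretches lay inside the loci given below for their genes. Negative positions are thus counted from the start used for the window and do not place bases outside the gene. The windows furthest upstream for HSP90AA1 (chr14:102139700-102139999) and HSP90AB1 (chr6:44245944-44246243) held 0 matches.
HSP90AA1, chr14:102087104-102087133, minus strand, positions -89 to -60 from the start: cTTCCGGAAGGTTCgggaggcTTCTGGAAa
CHORDC1, chr11:90223081-90223110, minus strand, positions -61 to -32 from the start: gGAAAATTCGCGAAGGTTCCTGAAacgcaa

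In the HSP90AB1 window the bases that lie outside annotated exons (GENCODE 29) ran over 173 bases, chr6:44247693-44247865 on the plus strand, positions -250 to -78 from the start.
HSP90AB1: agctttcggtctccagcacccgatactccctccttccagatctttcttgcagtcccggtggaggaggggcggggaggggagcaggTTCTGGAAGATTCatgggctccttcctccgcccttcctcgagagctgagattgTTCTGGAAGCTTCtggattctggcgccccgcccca

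The deposited table gave the first library of DMSO and of 2 h. The columns named for the second libraries were read, from their values, as the authors' means over both libraries, which no label states. Each second library was recovered from that mean, so that every value called recovered rests on this reading. The recovered libraries stood apart from the first ones. MIR6723, annotated as a microRNA gene, took 25.0% (DMSO) and 21.8% (2 h) of their FPKM total. It took 9.19% and 8.65% of the totals of the corresponding first libraries, and 5.04% and 6.93% at 6 h and 12 h. The deposited 6 h and 12 h values came from comparisons with the first DMSO library. In DMSO all 10 members were lower in the recovered library, by a median of -0.64 on the log2 scale (range -1.21 to -0.24), where 54.1% of all genes were lower. All 10 were also lower in the recovered 2 h library, where 54.6% of all genes were lower. The summed level of 9 epithelial and ovarian markers was 3153 to 4723 FPKM, most of it KRT8 and KRT18. Of these markers 7 had a mean of at least 1 FPKM. PAX8 was low, at 1.64 to 2.12 FPKM, and WT1 and MUC16 stayed under 1 FPKM in every library. The summed level of 5 immune markers was 28.7 to 44.1 FPKM, most of it CD68, and that of 5 fibroblast markers 2.98 to 6.87 FPKM. The summed level of 3 endothelial markers was 11.5 and 8.31 FPKM in the recovered DMSO and 2 h libraries and 0.44 to 1.20 FPKM in the other libraries, almost all of it PECAM1. The part of these library differences in the results below was not tested, and for the members the 6 h and 12 h values are given both against the DMSO mean and against each DMSO library. Read counts, and with them counting errors, are unknown.

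The 6 h and 12 h libraries held more HSP90 and cochaperone transcript than the DMSO libraries, with CHORDC1 differing most and FKBP5, HSF1 and CDC37 least. In bulk RNA, more expressing cells and more RNA per cell cannot be told apart. At 6 h, 8 of the 10 members lay above both DMSO libraries (31.6% of all genes tested did), and at 12 h 7 did (30.1%). The median log2 fold change of the 10 members on the log2(FPKM + 0.1) scale, against both DMSO libraries averaged, was 0.16 after 2 h, 0.84 after 6 h and 1.02 after 12 h. For all genes tested the same medians were -0.01, 0.03 and -0.05. Taken against the first DMSO library alone, the members' median was 0.46 after 6 h and 0.51 after 12 h, and against the recovered one 1.08 and 1.37. The 6 h and 12 h groups have 1 library each, so their differences have no replicate check and no p-value.

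**Figure D1:**
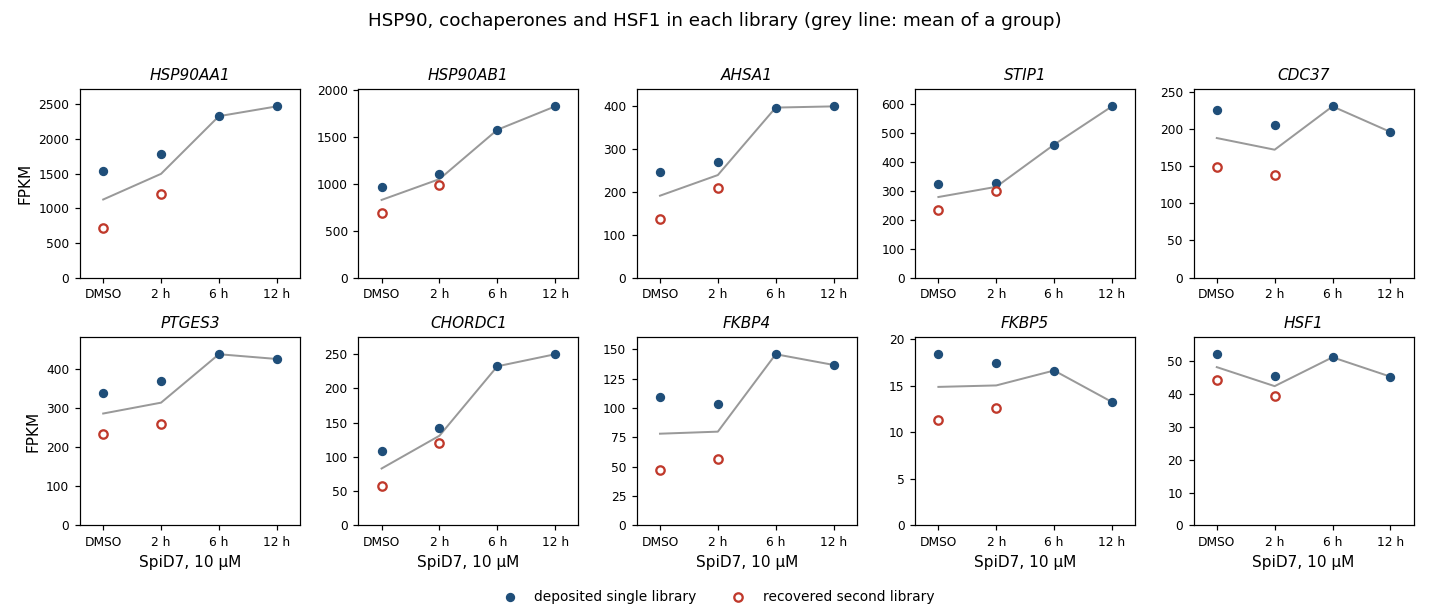
FPKM of each of the 10 genes (vertical axes, linear and starting at 0) by treatment (horizontal axes), with filled points for deposited single libraries and open points for recovered ones and a line through the group means. HSP90AA1, HSP90AB1, AHSA1, STIP1, PTGES3, CHORDC1 and FKBP4 lie higher at 6 h and 12 h than in any DMSO or 2 h library, while CDC37, FKBP5 and HSF1 do not at both times.

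HSP90AA1 (chr14:102080738-102139749, hg38) had 1542 FPKM (first library) and 713 FPKM (recovered library) with DMSO. After 2 h of SpiD7 the level was 1786 and 1211 FPKM in the same order, which is kept below, after 6 h it was 2330 and after 12 h 2472. Both late libraries were above all 4 others, while the 2 h and DMSO libraries overlapped. Its log2 fold change was 1.15 at 6 h and 1.24 at 12 h. These were 0.60 and 0.68 against the first DMSO library, and 1.71 and 1.79 against the recovered one, so that the size of the difference depended on which vehicle library was used. Already in DMSO the gene ranked 70 and 140 among the 13287 genes by FPKM, and at 12 h it ranked 42.

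HSP90AB1 (chr6:44246166-44253888) had 964 and 693 FPKM with DMSO, 1110 and 991 after 2 h, then 1576 after 6 h and 1826 after 12 h. It was the more even of the HSP90 pair: both 2 h libraries were above both DMSO libraries, and both late libraries were above those. The log2 fold change was 0.36 ± 0.24 (limma SE) after 2 h, 0.95 after 6 h and 1.16 after 12 h, the late values being 0.71 and 0.92 against the first and 1.19 and 1.40 against the recovered DMSO library. The ratio of HSP90AA1 to HSP90AB1 FPKM was 1.60 and 1.03 with DMSO, 1.61 and 1.22 after 2 h, then 1.48 after 6 h and 1.35 after 12 h. The late ratios lay between those of the DMSO libraries. FPKM is scaled by transcript length, so that these levels may be set side by side. The HSP90 genes have near-identical copies elsewhere in the genome, and the counting of reads shared with them is not given in the sources used here, so their levels are uncertain to that extent.

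AHSA1 (chr14:77458030-77469472), the ATPase activator, had 246 and 137 FPKM with DMSO, 269 and 210.0 after 2 h, then 397 after 6 h and 399.8 after 12 h. The late libraries were above all others and nearly equal to each other. The log2 fold change was 1.11 at 6 h and 1.12 at 12 h. It was 0.69 and 0.70 at these times against the first DMSO library, and 1.54 and 1.55 against the recovered one.

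STIP1 (chr11:64185272-64204548), the HSP70 to HSP90 adaptor, had 322 and 234 FPKM with DMSO, 328 and 298 after 2 h, then 458 after 6 h and 590.1 after 12 h. It was the member with the largest further gain between 6 h and 12 h, 0.36 on the log2 scale. Its log2 fold change was 0.19, 0.74 and 1.11 at the successive times. The late values were 0.51 and 0.87 against the first and 0.97 and 1.34 against the recovered DMSO library.

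CHORDC1 (chr11:90200429-90223364), the CHORD-domain cochaperone, had 109 and 56.9 FPKM with DMSO, 142 and 120.0 after 2 h, then 232 after 6 h and 249 after 12 h. Both 2 h libraries were above both DMSO libraries, as for 13.7% of all genes tested. The single 6 h library was above both 2 h libraries, and the share of all genes with this full order was not counted. The gene's rank by FPKM was 887 and 1638 of 13287 in DMSO and 374 at 12 h. The log2 fold change was 0.73 ± 0.40 (limma SE) after 2 h, 1.56 after 6 h and 1.66 after 12 h. The late values were 1.09 and 1.19 against the first and 2.02 and 2.13 against the recovered DMSO library. Among the members it alone was more than 2-fold above each DMSO library, at 6 h (3.21% of all genes tested) and at 12 h (3.88%).

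PTGES3 (chr12:56663341-56688408), the p23 cochaperone, had 339 and 235 FPKM with DMSO, 369 and 260.1 after 2 h, then 439 after 6 h and 427 after 12 h. Its late libraries were above the others by a smaller margin, with log2 fold changes of 0.64 and 0.60. These were 0.37 and 0.33 against the first DMSO library alone and 0.90 and 0.86 against the recovered one. FKBP4 (chr12:2794942-2805423), the immunophilin also called FKBP52, had 109 and 47.1 FPKM with DMSO, 103 and 56.3 after 2 h, then 146 after 6 h and 137 after 12 h. The DMSO libraries of FKBP4 differed more than those of any other member, by -1.21 on the log2 scale. Its late log2 fold changes, 1.02 and 0.93, were accordingly 0.42 and 0.32 against the first DMSO library and 1.63 and 1.53 against the recovered one.

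CDC37 (chr19:10391133-10403595), the kinase cochaperone, had 226 and 149 FPKM with DMSO, 206 and 138 after 2 h, then 230.3 after 6 h and 196 after 12 h. At 6 h it was 0.03 and 0.62 above them on the log2 scale. At 12 h it lay between the DMSO libraries, with differences of -0.21 and 0.39. The table gives MIR1181, a microRNA gene at the same locus, the same values, so that their reads cannot be told apart. FKBP5 (chr6:35543646-35748913), the immunophilin also called FKBP51 and a known glucocorticoid receptor target, was the least abundant member, with 18.4 and 11.4 FPKM with DMSO, 17.4 and 12.6 after 2 h, then 16.6 after 6 h and 13.2 after 12 h. Its late libraries lay between the DMSO libraries, with log2 fold changes at 6 h and 12 h of -0.14 and -0.47 against the first and 0.55 and 0.22 against the recovered one. Its row shares its locus with 4 other symbols and has the same values as RP3-510O8.4.

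HSF1, on chromosome 8, had 52.0 and 44.2 FPKM with DMSO, 45.4 and 39.2 after 2 h, then 51.1 after 6 h and 45.2 after 12 h. Both late values lay between the DMSO libraries, and the log2 fold change stayed between -0.18 at 2 h and 0.09 at 6 h. Each of these differences was smaller than the gap between its vehicle libraries, and activation of HSF1 protein is not measured by its transcript. Against the first DMSO library the late values were -0.03 and -0.20, and against the recovered one 0.21 and 0.03. Its locus is shared by 3 other symbols in the table, whose values differ.

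At 2 h, the only time with replicates on both sides, no member passed the test. HSP90AB1 and CHORDC1, 2 of 10, had both 2 h libraries above both DMSO libraries, which 13.7% of all genes tested had, while none had both below both (8.1%) and none was more than 2-fold higher (2.32%). By limma with Benjamini-Hochberg adjustment over 13287 genes the adjusted p was 1.0 for all 10, and 0 members had an unadjusted p under 0.05, the lowest being 0.153 for CHORDC1. The same fit called 3 genes in all (0.0226%), MIR1260B, SNORA18 and SNORA32, small RNA genes named after their values were seen, and 378 genes had an unadjusted p under 0.05. An exact permutation test of 2 against 2 libraries cannot give a two-sided p below 0.333. With the first libraries alone, 6 members were higher and 4 lower at 2 h, and with the recovered ones alone 8 were higher and 2 lower.

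At 6 h, 4 members were more than 2-fold above the mean of both DMSO libraries, HSP90AA1, AHSA1, CHORDC1 and FKBP4, against 5.66% of all genes tested. FKBP4 was at the limit, with 0.97 on the log2 scale under median-ratio and 0.98 under upper-quartile scaling, which left 3 members. At 12 h, 5 were, HSP90AA1, HSP90AB1, AHSA1, STIP1 and CHORDC1, against 6.48% of all genes. These counts fell to 1, CHORDC1, at either time when only the first DMSO library was used. All 10 members were higher at 6 h than the mean of the 2 h libraries, by a median of 0.57 on the log2 scale. Of all genes 52.5% were higher at this step, with a median of 0.02. From 6 h to 12 h, 5 members were higher and 5 lower, from 0.36 for STIP1 to -0.33 for FKBP5, while 42.8% of all genes were higher and their median was -0.06. Both late libraries lay above all 4 DMSO and 2 h libraries for 7 members, as for 13.4% of all genes.

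**Figure D2:**
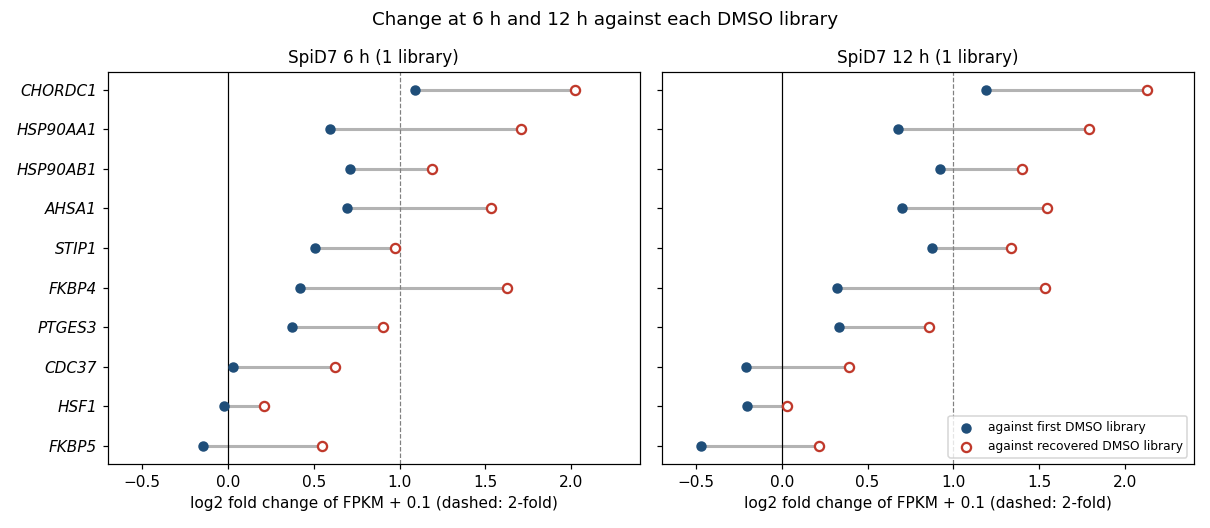
Log2 fold change of FPKM + 0.1 (horizontal axes) of each of the 10 genes at 6 h and 12 h, set against the first DMSO library (filled points) and the recovered one (open points), with a dashed line at 2-fold. CHORDC1 lies right of the dashed line against both DMSO libraries at both times, and at 12 h CDC37, HSF1 and FKBP5 have points on either side of 0.

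A slope of log2(FPKM + 0.1) on hours of SpiD7, with DMSO as 0 h, was fitted to all 6 libraries by limma. CHORDC1 had the steepest slope of the members, 0.140 ± 0.0410 (SE) per hour, and HSP90AA1 had 0.106 ± 0.0421. Without the 12 h library these slopes were 0.259 and 0.192. Without the recovered DMSO library they were 0.105 and 0.0708, and that of HSP90AA1 was then below those of STIP1 (0.0840), HSP90AB1 (0.0828) and AHSA1 (0.0732). STIP1 had the smallest unadjusted p of the members, 0.00283 by limma, with a slope of 0.0960 ± 0.0195 and an adjusted p of 0.169. An unadjusted p under 0.05 with a rising slope was found for 5 members, HSP90AA1, HSP90AB1, AHSA1, STIP1 and CHORDC1, and for 7.33% of all genes. After adjustment limma called 0 of 13287 genes, members included, while 2049 genes had an unadjusted p under 0.05. With log2(hours + 1) in place of hours limma called 5 genes, none of them a member. The slopes of CDC37, HSF1 and FKBP5 were 0.0181 ± 0.0294, 0.0011 ± 0.0181 and -0.0064 ± 0.0279 per hour.

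**Figure D3:**
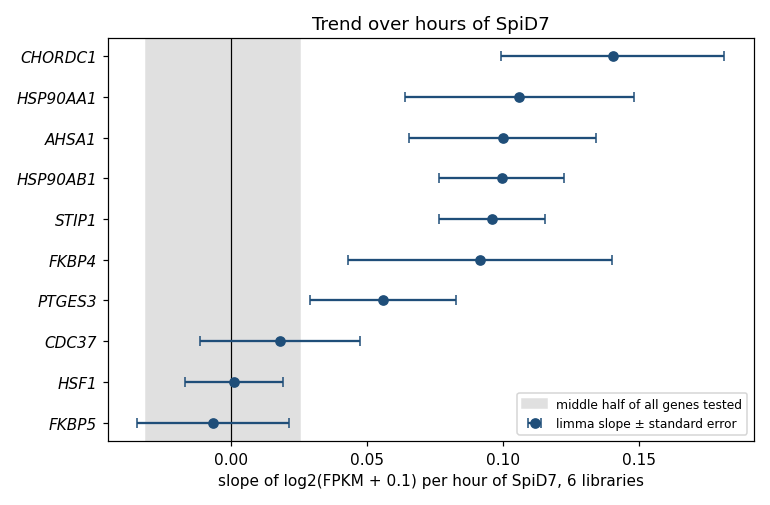
Slope of log2(FPKM + 0.1) per hour of SpiD7 over 6 libraries (horizontal axis) for each of the 10 genes, with bars of 1 limma standard error on either side and a grey band from the lower to the upper quartile of all 13287 genes tested. CDC37, HSF1 and FKBP5 have slopes inside the band, and the other 7 lie to its right.

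Ratios taken within a library do not depend on how the libraries are scaled, and they separated the members. AHSA1 kept step with the cytosolic HSP90 transcripts: per 100 FPKM of HSP90AA1 and HSP90AB1 summed, it had 9.80 and 9.74 FPKM with DMSO, 9.29 and 9.53 after 2 h, then 10.2 after 6 h and 9.30 after 12 h. STIP1 and FKBP4 had ratios at 12 h of 13.7 and 3.18, with 12.8 and 16.6, and 4.35 and 3.35, in DMSO. CHORDC1 was the member whose ratio was higher at every time of SpiD7, with 4.35 and 4.05 with DMSO, 4.89 and 5.45 after 2 h, then 5.94 after 6 h and 5.80 after 12 h. Such a ratio, higher in all 4 SpiD7 libraries than in both DMSO libraries, was found for 0.843% of all genes tested.

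The ratios of the kinase cochaperone and of 3 other members went the other way. CDC37 had 9.02 and 10.6 FPKM per 100 FPKM of HSP90 with DMSO, 7.11 and 6.28 after 2 h, then 5.89 after 6 h and 4.56 after 12 h. PTGES3 went from 13.5 and 16.7 to 12.8 and 11.8, 11.2 and 9.93. FKBP5 went from 0.732 and 0.808 to 0.602 and 0.572, 0.425 and 0.308, and HSF1 from 2.08 and 3.14 to 1.57 and 1.78, 1.31 and 1.05. For these 4 genes no 2 h, 6 h or 12 h ratio reached either DMSO ratio, while their own FPKM values overlapped with DMSO at 2 h. The same was true of 33% of all genes tested, so that such a ratio is common in these libraries. The summed HSP90 level was 2507 and 1406 FPKM with DMSO, 2895 and 2202 after 2 h, then 3907 after 6 h and 4298 after 12 h.

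**Figure D4:**
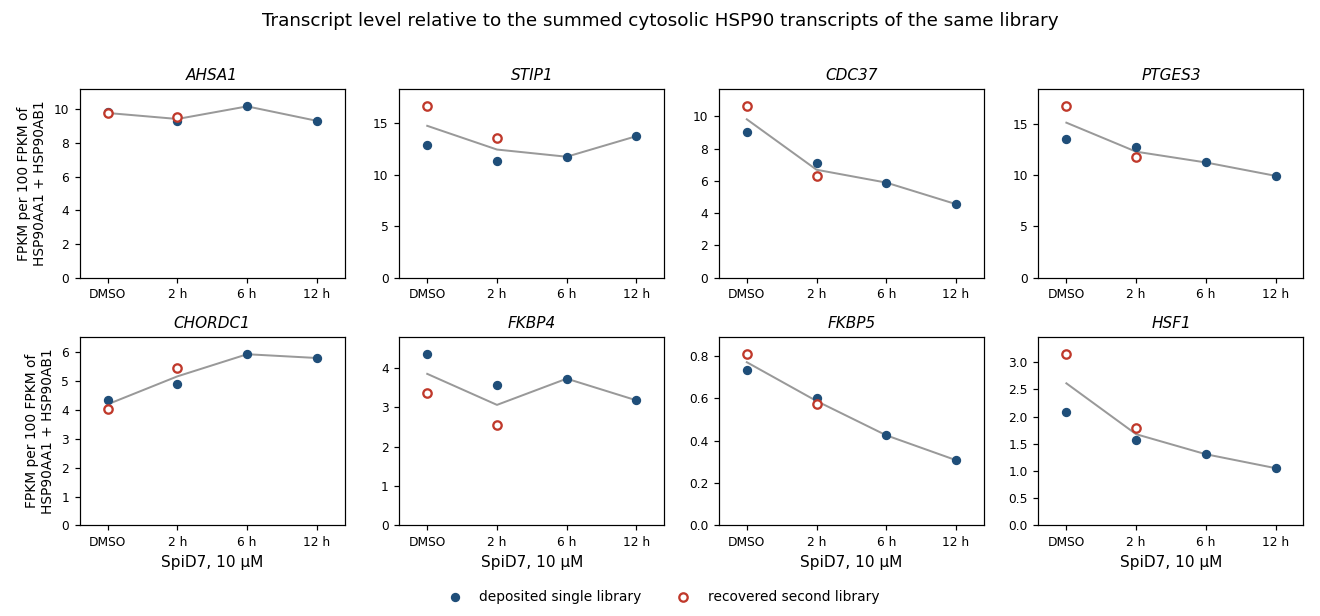
FPKM of each cochaperone and of HSF1 per 100 FPKM of HSP90AA1 and HSP90AB1 summed in the same library (vertical axes, starting at 0) by treatment (horizontal axes), with filled points for deposited and open points for recovered libraries and a line through the group means. AHSA1 stays between 9.29 and 10.2 in all 6 libraries, CHORDC1 lies higher and CDC37, PTGES3, FKBP5 and HSF1 lie lower in every SpiD7 library than in either DMSO library.

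Other genes of the pathway were taken from lists of its known members, chosen with earlier results of these data known. Of 30 further HSP90 machinery genes 29 were tested (ITGB1BP2 was too low), and their median log2 fold change was 0.06 after 2 h, 0.22 after 6 h and 0.10 after 12 h. At 12 h 14 of the 29 lay above both DMSO libraries (30.1% of all genes did) and 10 below both (35.6%). More than 2-fold higher were 2 of the 29, against 6.48% of all genes. The counts below and 2-fold higher were thus close to the shares of all genes. The 2 genes were CACYBP, a protein with an HSP90-binding CS domain, at 1.59, and HSP90B1, the HSP90 of the endoplasmic reticulum also called GRP94, at 1.39. Against the first and the recovered DMSO library CACYBP was at 1.16 and 2.01 and HSP90B1 at 1.75 and 1.03. The lowest was PPP5C, an HSP90-bound phosphatase, at -0.50 (-0.71 and -0.28). TRAP1, the mitochondrial HSP90, was at -0.40. Its value rested on the vehicle library, with -0.77 against the first and -0.02 against the recovered one. The rising slope had an unadjusted p under 0.05 by limma for 3 of the 29 genes, CACYBP, HSP90B1 and TTC4, against 7.33% of all genes. The table gives HSP90B1 the same values as MIR3652, and TTC4 the same as MROH7 and MROH7-TTC4, so that these reads cannot be told apart.

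All 18 HSF1 target genes outside the members exceeded the DMSO mean by more than 2-fold at 12 h, against 6.48% of all genes. The list was chosen with earlier results of these data known, so its counts are a description only. Its median difference from DMSO, on the log2 scale, was 0.64 after 2 h, 1.45 after 6 h and 2.14 after 12 h. With the first DMSO library alone as reference the 12 h median of the list was 2.07, and with the recovered one 2.05. The genes ran from 1.08 for HSPA4, a nucleotide exchange factor of HSP70, to 11.81 for HSPA6, a strictly inducible HSP70. HSPA6 had 0.32 and 0.096 FPKM with DMSO, so that its value depends on the 0.1 FPKM added before taking logs. Its mean reached 1 FPKM only through the SpiD7 libraries (77.5 to 1030 FPKM). That HSPA6 was higher there was thus fixed by the filter, and its place in the counts of this list is no evidence. Against the DMSO mean all 10 members lay below the 12 h median of this list. Against the recovered DMSO library alone CHORDC1, at 2.13, lay above it. At 2 h 12 of the 18 had both libraries above both DMSO libraries, against 13.7% of all genes. All 18 had a rising slope with an unadjusted p under 0.05 by limma (7.33% of all genes), although limma called none after adjustment. RefSeq windows of 16 of them held the element with 3 units for 5 genes (31.2%) and that with 2 units for 11 (68.8%). Of all symbols 0.608% and 16.2% had these elements. The windows of 22 other HSP90 machinery genes held the first for 0 and the second for 3 (13.6%), both near the shares of all symbols.

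Of 6 other heat shock factors and their regulators 5 were tested, with a median of 0.09 at 12 h, from -0.35 for HSF4 to 0.42 for HSBP1L1. The list's median was 0.32 against the first and -0.07 against the recovered DMSO library. HSF4 also changed sign, with 0.23 and -0.94, and has the same values as FBXL8, while HSBP1L1 was at 0.68 and 0.15. Of 20 HSP90 client genes 19 were tested, with a median of -0.31 at 12 h. Of these, 2 lay above both DMSO libraries (30.1% of all genes did) and 11 below both (35.6%). They ran from -1.02 for PLK1, a mitotic kinase, to 0.46 for BRAF. The clients' median was -0.41 against the first and -0.18 against the recovered DMSO library. PLK1, with 126 and 53.8 FPKM in these libraries, was at -1.63 and -0.41, and BRAF at 0.74 and 0.19. These are transcript levels, and the clients are acted on by HSP90 as proteins.

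FKBP5 was set beside genes of the glucocorticoid receptor, whose complexes it joins. Of 10 target genes of the receptor 8 were tested, whose log2 fold changes at 12 h had a median of -0.28, from -0.71 for KLF9 to 1.31 for DUSP1. At 12 h 0 of them lay above both DMSO libraries, against 30.1% of all genes. DUSP1 had 11.6 and 332 FPKM with DMSO and 154 FPKM at 12 h, and the direction of the whole list turned with the vehicle library. Against the first DMSO library 7 of the 8 targets were higher at 12 h (median 0.83, KLF9 at 0.43), and against the recovered one all 8 were lower (median -1.23, KLF9 at -1.85). Of 5 steroid receptor genes only NR3C1, which encodes the glucocorticoid receptor, was expressed at a mean of at least 1 FPKM, and its log2 fold change was -0.09 after 2 h, -0.14 after 6 h and -0.44 after 12 h. At 12 h it was -0.46 and -0.42 against the single DMSO libraries, and its row has the same values as LOC102723997.

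**Figure D5:**
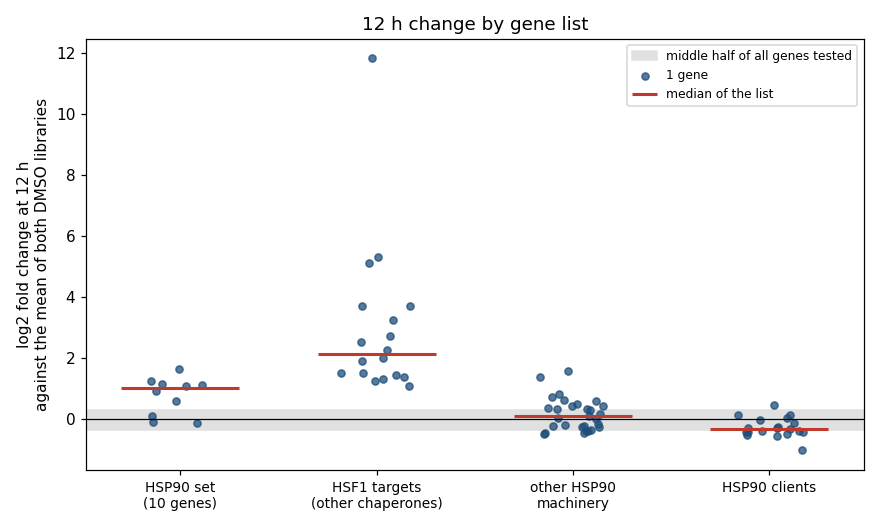
Log2 fold change of FPKM + 0.1 at 12 h of SpiD7 against the mean of both DMSO libraries (vertical axis) for 4 gene lists, with 1 point a gene spread sideways only for legibility, a red line at each median and a grey band from the lower to the upper quartile of all genes tested. The 18 HSF1 targets all lie above 1, the 10 members run from -0.12 to 1.66, and the medians of the other HSP90 machinery and of the clients are 0.10 and -0.31.

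The genes whose profiles over the 6 libraries were most like the mean profile of the 10 members were sought among 7173 genes with a mean of at least 10 FPKM, by Pearson's r of log2(FPKM + 0.1). They were C7orf26 (r = 0.998), TCP1 (0.997), MIR4435-1HG (0.996), SUGT1 (0.996) and MICA (0.995). TCP1 encodes a subunit of the cytosolic chaperonin, and SUGT1 is itself an HSP90 cochaperone of the machinery list. For HSP90AA1 alone they were UTP14A, ODC1, TCP1, PMM2 and TMEM126A (r = 0.996 to 0.993). For FKBP5, beside RP3-510O8.4 with the same values, they were ROCK2, PINX1, MRPS10 and ACLY (r = 0.999 to 0.996). Each r rests on 6 libraries, among which all members were low in the recovered pair, so it is a description only.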

How the data were processed

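RNA-Seq of OVCAR5 cells (TruSeq V2 libraries, 50 bp single reads) was processed by the authors with Trim Galore, TopHat2 2.0.8 and Cufflinks and Cuffdiff 2.1.1, per the submitters' processing notes. The methods name a mouse build, whereas the deposited loci are human (hg38). The strand setting is not given in the sources used here. FPKM values were deposited by the authors for each side of 4 comparisons, with fold changes, p-values and q-values of their own, which were not used. Locus starts were shifted by 1 to count from 1.

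The columns of the comparison named for replicate 2 were read as the authors' means of both libraries. No row fell below a fixed share of the first library (0.526 in DMSO, 811 rows at the limit, and 0.509 at 2 h, 964 rows), and the second library was recovered as the remainder, assuming equal weights. The 6 h and 12 h libraries were put on the scale of the first DMSO library. Relative depth from steps of low values was 0.769 to 1.11 of the first DMSO library, and absolute depth is unknown.

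Rows of 1 symbol were summed (33085 rows, 29982 symbols). Genes averaging 1 FPKM or more were tested on log2(FPKM + 0.1) by limma 3.58.1 in R 4.3.3 with Benjamini-Hochberg adjustment, for 2 h against DMSO and for the slope on hours. At 6 h and 12 h no test was made. The fits were also run on simulated data with the same spread for all genes and independent libraries. Real libraries of the same number deviated together, so that run says nothing about error rates here. Other steps used numpy 2.4.6 and pandas 2.3.3 in Python 3.11.15.

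Named were all members, the genes of each list with the highest and lowest change at 12 h, genes called by limma, and the 5 closest profiles to the member mean, to HSP90AA1 and to FKBP5. HSP90B1, TRAP1, TTC4 and the small RNA genes were named after their values were seen. The members and lists were chosen with earlier results of these data known. Other pseudocounts, filters, scalings, an intensity trend, a replicate block, another time scale and leaving out each library were tried.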

Additional observations from a re-analysis of the deposited data

Results flagged for a closer look

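For FKBP5 and HSF1 the difference from the DMSO mean changed sign between times of SpiD7. FKBP5 was at 0.20 on the log2 scale at 6 h and at -0.12 at 12 h. HSF1 was at -0.18 after 2 h, 0.091 after 6 h and -0.084 after 12 h. The differences between the times were not tested, and for both genes the 6 h and 12 h values lay between those of the DMSO libraries.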

How the results depend on the processing

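No member had an adjusted p under 0.05 in any limma fit run, in 130 alternative values at 2 h (lowest 0.371) and 150 of the slope (lowest 0.146). The number of genes called at 2 h, 3 as reported, was 1 with a pseudocount of 1, 6 with 0.01, 0 without the filter on low values, 1 with upper-quartile scaling, 5 with an intensity trend, and 0 to 21 with 1 library left out. Same-numbered libraries deviated together (correlation of deviations 0.369 over all genes and 0.663 over the members), but the labels do not say what a number shares, and with 2 pairs the pairing was not taken as given. With the replicate block limma called 0 genes, 1874 at an unadjusted p under 0.05. The slope, with 0 calls as reported, gave 6 calls with a pseudocount of 1, 5 with log2(hours + 1) and 0 to 0 with 1 library left out. The number of members more than 2-fold higher, 4 at 6 h and 5 at 12 h, was 1 to 5 and 1 to 6 with 1 library left out, the 1 being without the recovered DMSO library, and 3 at 6 h under median-ratio and upper-quartile scaling. At 2 h the log2 fold change of FKBP5 turned to -0.0059 with median-ratio scaling and -0.031 on the columns read as the authors' means. On the first libraries alone, an alternative chosen after seeing the data, it was -0.075. That of FKBP4 was -0.015 on the columns read as means and -0.077 on the first libraries alone. With 1 library left out the 2 h values also changed sign for CDC37 (-0.42 to 0.18), HSP90AA1 (-0.069 to 1.04), AHSA1 (-0.047 to 0.80), STIP1 (-0.043 to 0.42), PTGES3 (-0.13 to 0.40), FKBP4 (-0.51 to 0.69) and FKBP5 (-0.31 to 0.38). The slope of HSF1 turned to -0.0051 with log2(hours + 1) and ran from -0.0032 to 0.0152 with 1 library left out, and that of FKBP5 from -0.0254 to 0.0335. Those of CHORDC1 and HSP90AA1 ran from 0.105 to 0.259 and from 0.0708 to 0.192. The cause was not tested. The single late libraries, the recovered libraries and the unknown depth limit every value here.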
